A study of Mus musculus with 6 samples.

Results

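Liver transcripts of 6 genes that hold, sense or move zinc were followed in mice whose livers had been induced to make SV40 oncoproteins. The genes were Mt1 and Mt2 (metallothioneins), Mtf1 (their metal-sensing regulator), Slc30a1 (a zinc exporter), and Slc39a14 and Slc39a4 (zinc importers). They were taken by gene symbol from the platform annotation, which gave 15 probe sets, 9 on the 430A array and 6 on the 430B array, out of 45265 probe sets and 18194 genes in all. Mtf1 had 5 probe sets, Slc39a14 had 4, Mt1 and Slc30a1 had 2 each, and Mt2 and Slc39a4 had 1 each.

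LT and 17kT mice both carried ApoErtTA:TRE2-TAg, in which doxycycline switches on SV40 proteins from the TRE2-TAg transgene through an rtTA whose Apoe-derived control directs it to the liver. In LT livers these were large T, a protein that inactivates the retinoblastoma family and p53, and small t. In 17kT livers they were 17kT, a truncated T antigen without the p53-binding region, and small t. WT mice carried no transgene, so any effect of ApoErtTA itself cannot be told apart from that of the viral proteins. Every animal was a male of the hybrid B6SJL background aged 32 to 37 days, and all of them, WT included, drank 25 µg/ml doxycycline in 2.5% sucrose for 4 days. Each genotype had 1 array of each design (6 arrays in all), so nothing below was checked against replicates and no p-value is given, and the labels do not say whether an RNA came from 1 mouse or several.

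Metallothioneins are small cysteine-rich proteins that bind zinc and copper, and the liver makes large amounts of them when metal, glucocorticoid or inflammatory signals rise. MTF1 is a transcription factor that binds metal response elements in DNA when zinc is plentiful, and Mt1, Mt2 and Slc30a1 are among its best known targets. The Slc30 family moves zinc out of the cytosol and the Slc39 family moves it in. Slc39a14 (ZIP14) carries zinc, iron and manganese into hepatocytes and is known to be raised by interleukin 6 in mouse liver, and Slc39a4 (ZIP4) is best known as the zinc importer of the intestine, where its loss in humans causes acrodermatitis enteropathica.

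The promoters of Mt1, Mt2 and Slc30a1 are shown because they carry the motif that MTF1 reads, and the 3 genes did not move alike on these arrays. The sequences are RefSeq windows of build GRCm38.p6, from 250 bases before to 30 bases after the start that the table annotates, written 5′ to 3′ along the gene's strand (+ for all 3). The capitals mark metal response element cores, searched as TGCACNC or TGCGCNC on both strands. The windows lie at chr8:94178839-94179118 for Mt1, chr8:94172368-94172647 for Mt2 and chr1:191906531-191906810 for Slc30a1.
Mt1: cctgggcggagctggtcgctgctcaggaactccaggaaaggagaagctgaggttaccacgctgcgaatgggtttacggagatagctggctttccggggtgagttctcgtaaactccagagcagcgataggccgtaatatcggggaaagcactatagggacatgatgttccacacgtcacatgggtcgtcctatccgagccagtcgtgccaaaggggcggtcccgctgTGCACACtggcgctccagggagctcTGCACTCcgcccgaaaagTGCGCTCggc
Mt2: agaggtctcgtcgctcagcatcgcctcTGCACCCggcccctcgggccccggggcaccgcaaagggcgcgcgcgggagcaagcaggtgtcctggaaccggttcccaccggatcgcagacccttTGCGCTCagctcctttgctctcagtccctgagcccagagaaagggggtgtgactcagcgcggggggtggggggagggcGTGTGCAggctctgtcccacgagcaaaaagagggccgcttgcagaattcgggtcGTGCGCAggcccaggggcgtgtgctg
Slc30a1: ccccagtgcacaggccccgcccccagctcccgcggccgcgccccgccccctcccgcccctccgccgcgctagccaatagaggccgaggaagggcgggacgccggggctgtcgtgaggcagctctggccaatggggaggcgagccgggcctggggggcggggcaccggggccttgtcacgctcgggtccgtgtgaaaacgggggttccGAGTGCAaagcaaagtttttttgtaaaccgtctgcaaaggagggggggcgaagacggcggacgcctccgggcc
Mt1 held 3 cores, beginning at bases -23, 3 and 21 from the annotated start. Mt2 held 4, beginning at -223 and -128 on the gene's strand and at -50 and 5 on the other strand. Slc30a1 held 1, at -43 on the other strand, and Mtf1 held none in its window. Of 32851 RefSeq windows of the same length, 24.1% held at least 1 such core, 6.37% at least 2 and 1.73% at least 3. The RefSeq gene record begins 206 bases upstream of the annotated start used for Mt1 and 84 bases upstream of that used for Slc30a1, so other starts exist for both. Starts downstream of the annotated one were not looked for. Cores outside a window were not counted, so the counts and positions hold for these windows only. The table held windows for 4 of the 6 genes, and Slc39a14 and Slc39a4 were not among them.

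**Figure D1:**
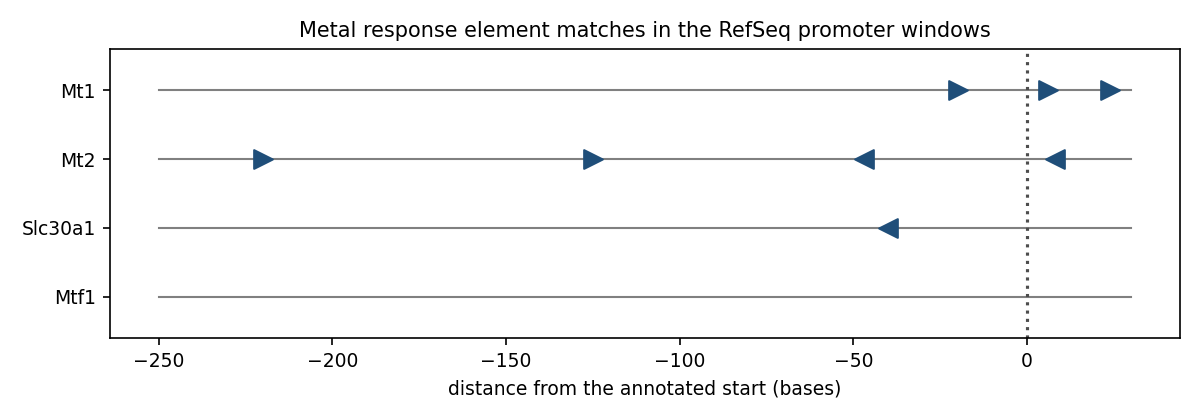
Positions of metal response element cores in the promoter windows of Mt1, Mt2, Slc30a1 and Mtf1. The horizontal axis is the distance in bases from the annotated start (dotted line), and each triangle is 1 core pointing right on the gene's strand and left on the other strand; Mt1 has 3, Mt2 has 4, Slc30a1 has 1 and Mtf1 has none.

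The signals below are the deposited MAS5 intensities, on a linear scale with no unit. For ratios, the arrays of a design were brought to the same 2% trimmed mean, and signals under the design's median (90.4 on 430A, 140.5 on 430B, called the floor) were set to it, since dim signals carry little information. A 2-fold difference between floored signals was the line for calling a probe set higher or lower. A probe set at the floor on 1 of the arrays compared gives a bound, and one at the floor on both gives no ratio. Of the 15 probe sets, 9 lay above the floor on all 3 arrays of their design, 1 on 2 arrays, 1 on 1 array and 4 on none. Signals of different probe sets depend on how well each binds, so levels are compared only within a probe set.

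Both liver metallothioneins were far above WT in the transgenic livers, and further above it in 17kT than in LT. Mt1 (1422557_s_at, 430A) had a signal of 3926.9 in LT and 8466.2 in 17kT, against 685.7 in WT. That is 5.73-fold higher in LT (log2 ratio 2.52) and 12.3-fold higher in 17kT (3.63), and LT was 2.16-fold lower than 17kT (-1.11). Mt2 (1428942_at, 430A) had 1519.1 in LT and 4088.3 in 17kT, against 383.0 in WT, 3.97-fold higher in LT (1.99) and 10.7-fold higher in 17kT (3.42). LT was 2.69-fold lower than 17kT for Mt2 (-1.43). The order 17kT, LT, WT was thus the same for both genes. The step of Mt1 between LT and 17kT fell just short of 2-fold (-0.95) with arrays scaled to the median, and the other steps of both genes were past 2-fold under every scaling tried.

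Few probe sets anywhere on the arrays had ratios as high, and falls of the same size were not counted. Of 26556 probe sets measured in 17kT against WT, 27 had a higher ratio than Mt1 and 40 a higher ratio than Mt2. In LT against WT, 159 of 25762 exceeded Mt1 and 354 exceeded Mt2. The 100 probe sets that 430A and 430B have in common measure the same RNA again and put the technical SD of a log2 ratio at 0.23 (LT against WT), 0.28 (17kT against WT) and 0.26 (LT against 17kT), beside a median offset between the designs of -0.25, 0.19 and -0.36 (430A minus 430B). All 100 gave a ratio in every comparison, so this SD may be too small for probe sets near the floor. Different probe sets of a gene had SDs of 0.59, 0.56 and 0.48. The Mt1 and Mt2 differences between each transgenic liver and WT exceed these spreads, while biological variation between mice could not be measured.

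The Mt1 probe set ends in _s_at, a class that can bind several related transcripts, so the RNA of close relatives cannot be told apart in it. The Mt2 probe set is of the single-gene class and gave the same order. The other Mt1 probe set (1451612_at, 430A) read 54.9 in LT and 59.1 in 17kT, against 40.0 in WT, at the floor on all 3 arrays, and so gives no ratio. The family's remaining genes, Mt3 (the brain form) and Mt4 (the form of stratified epithelia), were at the floor on every 430A array, with Mt3 signals of 17.3, 5.94 and 10.7 and Mt4 signals of 3.6, 18.9 and 5.2 in LT, 17kT and WT.

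**Figure D2:**
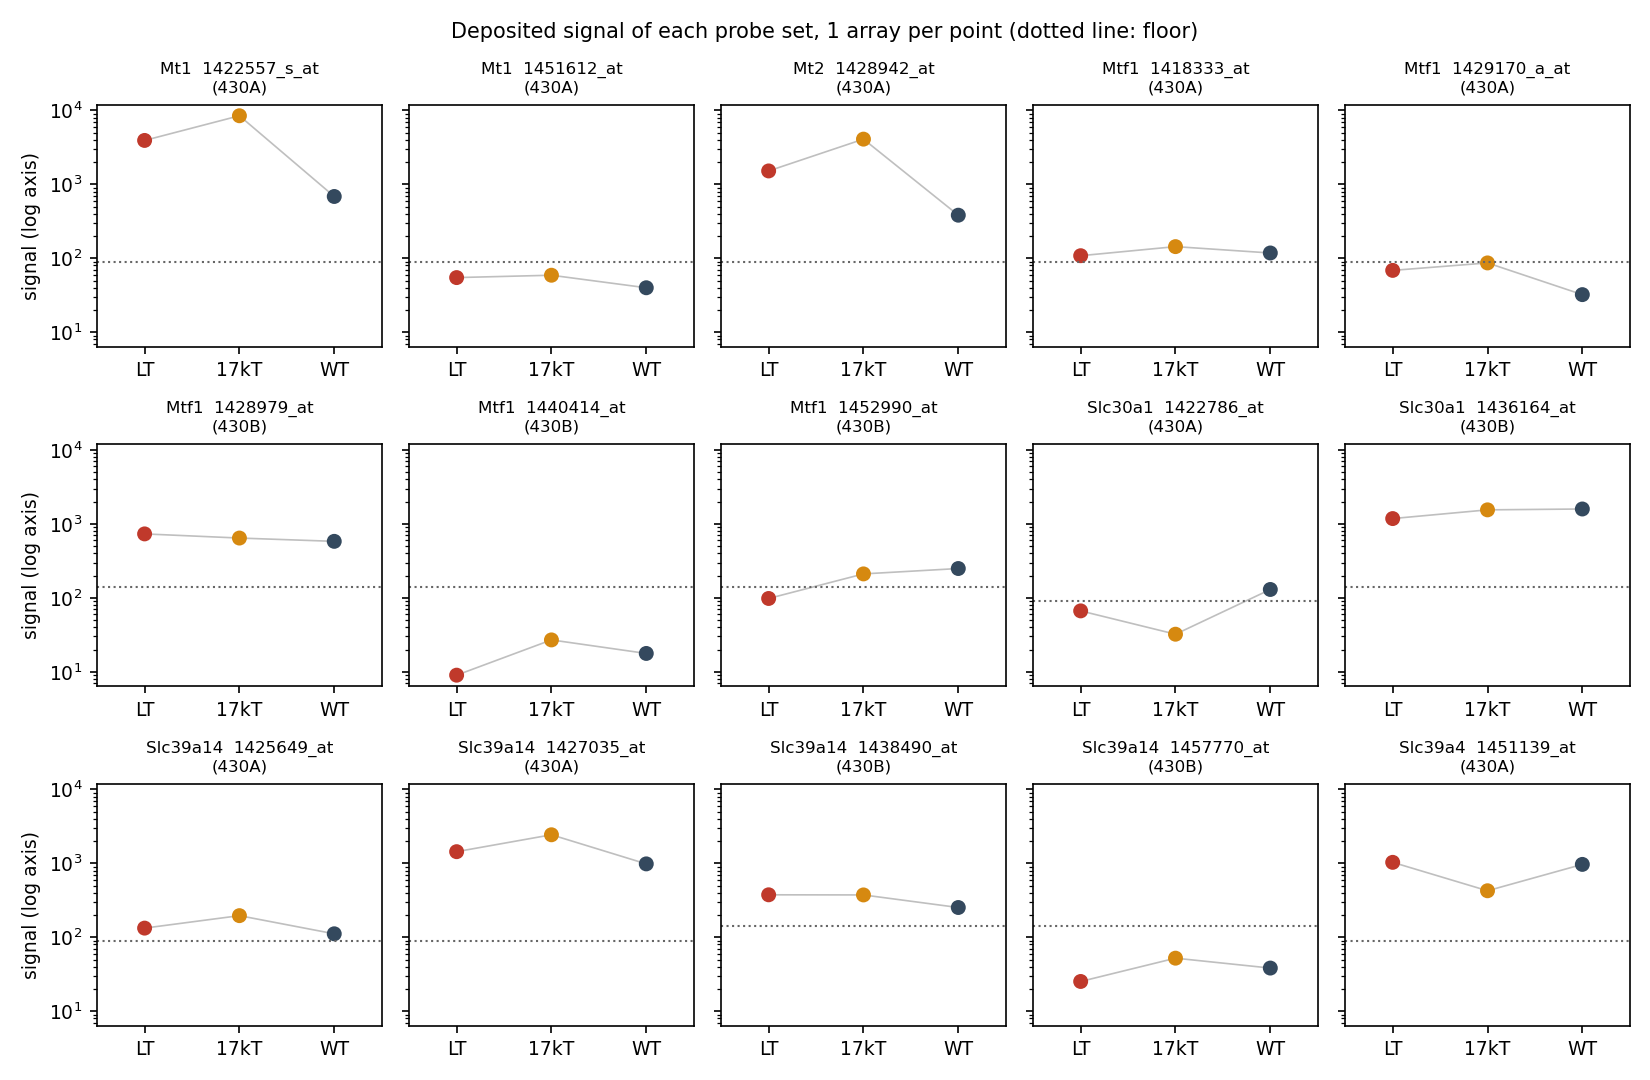
Deposited signal of all 15 probe sets (log axis, arbitrary units), 1 point per array, in LT, 17kT and WT from left to right; the dotted line is the floor of the design (90.4 on 430A, 140.5 on 430B). The bright Mt1 and the Mt2 probe sets peak in 17kT at 8466.2 and 4088.3, Slc39a14 1427035_at also peaks in 17kT, and Slc39a4 is lowest there.

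Mtf1, the regulator that couples zinc to the metallothionein genes, had no probe set called past 2-fold in any comparison. The LT ratios of 1452990_at are bounds, however, which do not place them within 2-fold. The brightest (1428979_at, 430B) had 731.7 in LT and 642.9 in 17kT, against 580.4 in WT, log2 ratios of 0.33 and 0.15. A probe set just above the floor (1418333_at, 430A) had 108.5 in LT and 143.9 in 17kT, against 118.1 in WT (-0.12 and 0.29). These differences are about as large as the technical spread, and the LT values of both probe sets change sign between scalings. The probe set 1452990_at (430B) had 98.0 in LT and 210.6 in 17kT, against 249.0 in WT. It was at the floor in LT, which makes LT at least 1.77-fold lower than WT and at least 1.5-fold lower than 17kT, and it moved opposite to the brightest Mtf1 probe set in LT. The remaining probe sets lay at the floor, 1429170_a_at (430A) with 68.7, 86.7 and 32.3 and 1440414_at (430B) with 9.0, 27.0 and 17.7 in LT, 17kT and WT. MTF1 acts by binding zinc and DNA, and the protein and its activity were not measured.

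Slc30a1 (ZnT1), which exports zinc across the plasma membrane and is a textbook MTF1 target, was called past 2-fold in no comparison. Its dim probe set gives only bounds against WT, however, which do not place it within 2-fold. Its bright probe set (1436164_at, 430B) had 1179.2 in LT and 1546.7 in 17kT, against 1589.0 in WT. LT was 1.35-fold lower than WT (-0.43) and 17kT differed from WT by 1.03-fold (-0.04), neither past 2-fold. The dim probe set (1422786_at, 430A) had 66.6 in LT and 32.2 in 17kT, against 129.7 in WT, at the floor in both transgenic livers and so at least 1.43-fold lower. No Slc30a1 probe set was higher than WT in either transgenic liver by the scaling used here, although the bright probe set's 17kT ratio lies on both sides of 0 across scalings, from -0.13 to 0.01.

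Slc39a14 was higher than WT in 17kT on the brightest of its probe sets. That probe set (1427035_at, 430A) had 1439.0 in LT and 2435.5 in 17kT, against 984.0 in WT, 1.46-fold in LT (0.55) and 2.48-fold in 17kT (1.31). A dimmer one (1425649_at, 430A) had 133.2 in LT and 196.4 in 17kT, against 111.6 in WT (0.26 and 0.82), in the same order. On the other design, 1438490_at (430B) had 375.8 in LT and 374.3 in 17kT, against 253.0 in WT (0.57 in each). All 3 measured probe sets were thus above WT in both transgenic livers under every scaling tried. By the scaling used here 1 of them passed 2-fold, in 17kT. Across scalings, 1427035_at reached up to 1.02 in LT and 1425649_at up to 1.44 in 17kT, both past 2-fold. The lowest LT values across scalings were 0.30 for 1427035_at, 0.01 for 1425649_at and 0.09 for 1438490_at. Those of 1425649_at and 1438490_at lie within the technical SD of 0.23, so they show no clear difference of LT from WT. The 430A probe sets put 17kT above LT, by 0.76 and 0.56 on the log2 scale, whereas the 430B probe set showed no such step (0.01). The probe set 1457770_at (430B) was at the floor, with 25.3, 52.3 and 38.4 in LT, 17kT and WT.

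Slc39a4 was lower in 17kT than in either other liver. Its single probe set (1451139_at, 430A) had 1032.6 in LT and 426.2 in 17kT, against 968.6 in WT. 17kT was 2.27-fold lower than WT (-1.18), LT was 2.42-fold higher than 17kT (1.28), and LT and WT differed by 1.07-fold (0.09). In 17kT the importer Slc39a4 therefore moved opposite to the importer Slc39a14. With arrays scaled to the hybridisation controls, the 17kT ratio shrank to -0.47 and was no longer past 2-fold.

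**Figure D3:**
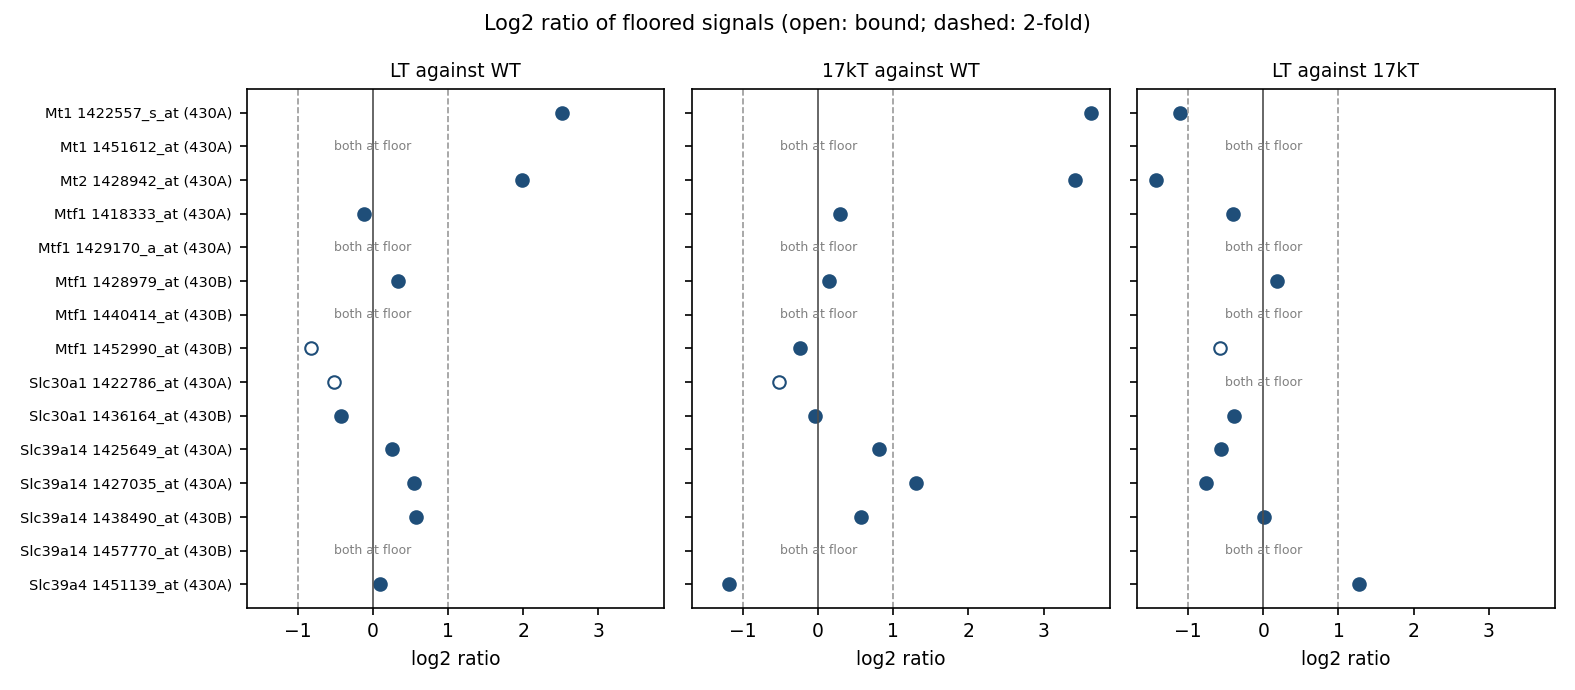
Log2 ratio of floored signals for each of the 15 probe sets (rows) in LT against WT, 17kT against WT and LT against 17kT (panels); filled points are measured on both arrays, open points are bounds, and dashed lines mark 2-fold. Past 2-fold are Mt1 and Mt2 in all 3 panels, Slc39a14 1427035_at in 17kT against WT, and Slc39a4 in 17kT against WT and in LT against 17kT.

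Counted over the 15 probe sets, 11 had a ratio in LT against WT, of which 2 were higher (Mt1 and Mt2) and 0 lower, where 9.76% of all measured probe sets were higher and 8.54% lower. In 17kT against WT 11 had a ratio, 3 were higher (Mt1, Mt2 and Slc39a14) and 1 lower (Slc39a4), beside 9.03% and 7.47% of all. In LT against 17kT 10 had a ratio, 1 was higher (Slc39a4) and 2 lower (Mt1 and Mt2), beside 4.00% and 4.57% of all. The median log2 ratio of the measured probe sets was 0.26, 0.29 and -0.48 in these comparisons, against -0.02, 0.07 and -0.06 over all probe sets. The comparisons with WT share the WT arrays, so a fault of a WT array would enter both.

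The shares of all probe sets called depend on the scaling. When the probe sets common to 430A and 430B set the scale, 5.36% were higher and 16.8% lower in LT against WT, 6.90% and 10.1% in 17kT against WT, and 2.24% and 8.96% in LT against 17kT. With scaling to the hybridisation controls these shares became 18.8% and 4.79%, 20.1% and 5.32%, and 6.45% and 3.96%. The median of all probe sets shifted with them, to -0.30 and 0.31 in LT against WT. Relative to such shifts the metallothioneins stayed well above WT. Over the scalings Mt1 ranged from 2.27 to 2.99 in LT and from 3.36 to 4.34 in 17kT, and Mt2 from 1.74 to 2.46 and from 3.15 to 4.13.

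The rest of the zinc transporter families did not shift as a block. Genes are counted here by their brightest probe set, and over all genes 11.1% were higher and 9.01% lower in LT against WT, 9.97% and 8.64% in 17kT against WT, and 4.47% and 4.23% in LT against 17kT. Of 10 Slc30 genes 9 were measured, with 0 higher and 1 lower in LT against WT, 1 higher and 1 lower in 17kT against WT, and 0 either way in LT against 17kT. Their medians were -0.08, 0.06 and -0.25, against 0.02, 0.08 and -0.03 over all genes. Of 14 Slc39 genes 12 were measured, with 1 higher and 0 lower in LT against WT, 1 higher and 3 lower in 17kT against WT, and 2 higher and 0 lower in LT against 17kT, and medians of 0.02, 0.17 and -0.08. The signs of these medians changed between scalings, except that of the Slc30 median in LT against 17kT.

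The Slc30 gene that fell in both transgenic livers was Slc30a10, a family member that carries manganese out of cells. Its probe set 1439934_at had 424.3 in LT and 520.4 in 17kT, against 1989.8 in WT, 4.69-fold and 3.82-fold lower. A further probe set, 1438751_at, had 257.3 in LT and 221.0 in 17kT, against 1691.1 in WT, 6.57-fold and 7.65-fold lower, so both probe sets gave the same direction. Slc30a4, which loads zinc into vesicles and into milk, had 210.9 in LT and 250.4 in 17kT, against 125.1 in WT. It sat at the 2-fold line in 17kT, and its ratio was under that line when arrays were scaled to the median, the shared probe sets or by quantiles.

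Among the importers, Slc39a10 had the widest gap between LT and 17kT. Its probe set 1433751_at (430B) had 763.3 in LT and 79.9 in 17kT, against 477.0 in WT. 17kT was at the floor, at least 3.40-fold lower than WT and at least 5.43-fold lower than LT, and LT against WT was 0.68 on the log2 scale. Setting the floor at the 75th percentile loosened these bounds to -0.55 for 17kT against WT, which is short of 2-fold, and to 1.23 for LT against 17kT. A dimmer Slc39a10 probe set (1439041_at) was above the floor in LT alone, with 170.6 in LT and 45.5 in 17kT, against 57.3 in WT. Slc39a8 (ZIP8), a close relative of Slc39a14, had 278.9 in LT and 197.4 in 17kT, against 429.5 in WT, 2.18-fold lower in 17kT and 1.54-fold lower in LT. The 17kT call for Slc39a8 was lost with scaling to the hybridisation controls (-0.41). Slc39a6, an importer of the same family, had 221.0 in LT and 160.4 in 17kT, against 47.9 in WT on 1424674_at, at least 2.44-fold higher in LT. Its probe set 1424675_at read 84.4 in LT and 106.9 in 17kT, against 122.0 in WT, which is the opposite direction.

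**Figure D4:**
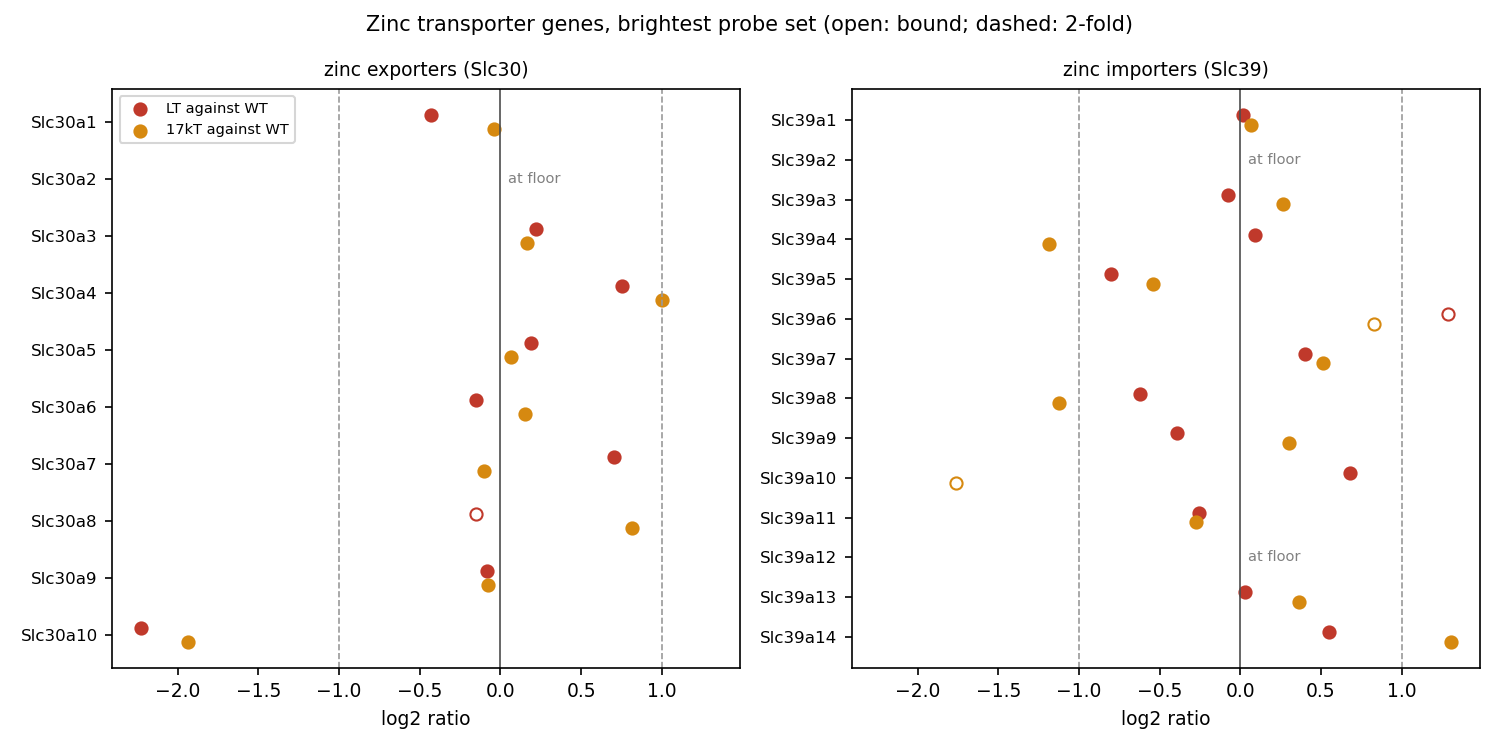
Log2 ratio of the brightest probe set of each Slc30 gene (left) and Slc39 gene (right) in LT against WT and 17kT against WT; open points are bounds, dashed lines mark 2-fold, and genes at the floor on all arrays are marked as such. Slc30a10 lies at -2.23 in LT and -1.94 in 17kT, Slc39a14 reaches 1.31 in 17kT, and Slc39a4, Slc39a8 and Slc39a10 lie below -1 in 17kT.

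Known MTF1 targets were a list of 7, Mt1, Mt2, Slc30a1, Slc39a10, Gclc, Selenow and Slc40a1. MTF1 is known to activate most of them and to repress Slc39a10 in mouse, so a count of higher and lower genes over this list has no single expected direction, and MTF1 activity was not tested. All 7 were measured, with 2 higher and 1 lower in LT against WT, 2 higher and 2 lower in 17kT against WT, and 1 higher and 2 lower in LT against 17kT. The shares of all genes were 11.1% higher and 9.01% lower, 9.97% and 8.64%, and 4.47% and 4.23% in these comparisons. The higher genes in both comparisons with WT were the metallothioneins themselves. Gclc, the catalytic subunit of the enzyme that limits glutathione synthesis, was lower on both of its probe sets. The brighter of them (1455959_s_at) had 799.6 in LT and 810.2 in 17kT, against 1681.8 in WT, 2.10-fold and 2.08-fold lower, and with scaling to the hybridisation controls these ratios were -0.60 and -0.34 on the log2 scale.

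Copper is the other metal that metallothioneins buffer. Of 11 genes of copper handling, 1 was higher and 1 lower in LT against WT (11 measured), 0 higher and 2 lower in 17kT against WT (10 measured), and 1 higher and 0 lower in LT against 17kT (11 measured). Over all genes the higher and lower shares were 11.1% and 9.01%, 9.97% and 8.64%, and 4.47% and 4.23% in turn. The copper chaperone Ccs, which loads superoxide dismutase, had 851.0 in LT and 767.8 in 17kT, against 2358.8 in WT, 2.77-fold and 3.07-fold lower. With scaling to the hybridisation controls its log2 ratios were -0.996 and -0.91, both short of 2-fold. Its client Sod1 (1459976_s_at, 430B) had 24982.2 in LT and 14973.5 in 17kT, against 38657.6 in WT, 2.58-fold lower in 17kT, while another bright Sod1 probe set (1451124_at, 430A) was 1.82-fold lower there. Commd1, a copper-handling protein of hepatocytes, had 733.1 in LT and 544.9 in 17kT, against 361.2 in WT, 2.03-fold higher in LT, and its other probe set stood at 1.34-fold. That call was lost with scaling to the shared probe sets (0.77 on the log2 scale). A dim probe set of the copper-binding plasma protein ceruloplasmin, Cp (1448735_at), was above the floor in 17kT alone, with 251.1 in 17kT and 51.2 in LT, against 27.6 in WT, while the brightest Cp probe set gave -0.58 in 17kT.

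Metallothioneins and Slc39a14 are also known as acute phase genes in mouse liver, and the other acute phase genes moved in both directions. The part of such a response in the zinc genes' values was not tested. Of 21 genes of the interleukin 6 acute phase response, 20 were measured against WT, with 2 higher and 6 lower in LT and 3 higher and 7 lower in 17kT, and medians of -0.63 and -0.60. Among all genes 11.1% were higher and 9.01% lower in LT, and 9.97% and 8.64% in 17kT. Serum amyloid Saa1 had 194.5 in LT and 164.6 in 17kT, against 11240.8 in WT, 57.8-fold and 68.3-fold lower. Orm1 (orosomucoid) had 154.0 in LT and 169.9 in 17kT, against 4103.0 in WT, 26.6-fold and 24.2-fold lower. Saa2 had 75.3 in LT and 81.4 in 17kT, against 2117.3 in WT, at least 23.4-fold lower in each. The Saa1 and Saa2 probe sets are of classes that can bind related transcripts, so they may not be independent. The genes that were higher were Hamp, Lcn2 and Socs3, named here after their values were seen. Hamp, the iron hormone hepcidin, had 5938.0 in LT and 7183.8 in 17kT, against 866.9 in WT, 6.85-fold and 8.29-fold higher. Lcn2, which binds bacterial iron carriers, was 2.48-fold higher in LT and 2.06-fold higher in 17kT, and Socs3, a feedback inhibitor of cytokine signalling, was 2.24-fold higher in 17kT and at 1.93-fold in LT. The 17kT calls of Lcn2 and Socs3 were lost with scaling to the shared probe sets (0.77 and 0.90 on the log2 scale). All these ratios rest on the single WT array of 430A, and the list's median in 17kT turned positive (0.10) with scaling to the hybridisation controls.

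Glucocorticoids are a further known inducer of metallothioneins. Of 14 glucocorticoid response genes 13 were measured, with 2 higher and 5 lower in LT against WT, 3 higher and 4 lower in 17kT against WT, and 0 higher and 3 lower in LT against 17kT. For all genes the higher and lower shares were 11.1% and 9.01%, 9.97% and 8.64%, and 4.47% and 4.23% in turn. Sgk1, a kinase of salt and stress signalling, had 1180.2 in LT and 1138.2 in 17kT, against 275.2 in WT, 4.29-fold and 4.14-fold higher. The clock gene Per1 had 263.6 in LT and 555.3 in 17kT, against 5.6 in WT, at least 2.92-fold and 6.14-fold higher, in the order that Mt1 and Mt2 showed. Angptl4, a lipase inhibitor, had 734.9 in LT and 3418.9 in 17kT, against 494.9 in WT, 6.91-fold higher in 17kT and 1.49-fold in LT. Igfbp1, which binds insulin-like growth factors, had 709.8 in LT and 1698.8 in 17kT, against 4584.4 in WT, 6.46-fold and 2.70-fold lower. Tat, the tyrosine-degrading enzyme long used as a marker of glucocorticoid action in liver, was 3.05-fold lower in LT and 2.31-fold lower in 17kT. With scaling to the hybridisation controls the 17kT calls of Igfbp1 and Tat were lost, at log2 ratios of -0.72 and -0.50, while under a 75th percentile floor the bound for Per1 in 17kT came to 0.996, at the 2-fold line.

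Of 11 genes of oxidative and metal stress 9 were measured, with 1 higher and 1 lower in LT against WT, 3 higher and 2 lower in 17kT against WT, and 0 higher and 3 lower in LT against 17kT. The higher and lower shares of all genes were 11.1% and 9.01%, 9.97% and 8.64%, and 4.47% and 4.23% in turn. Nfe2l2 (NRF2), the transcription factor of the antioxidant response, had 1955.2 in LT and 2192.8 in 17kT, against 943.1 in WT, 2.07-fold and 2.33-fold higher. Hmox1, which degrades heme, had 231.6 in LT and 465.2 in 17kT, against 168.9 in WT, 2.75-fold higher in 17kT and 1.37-fold in LT. With a 75th percentile floor the 17kT value was a bound of 0.74 on the log2 scale, short of 2-fold. Nqo1, a quinone reductase, had 92.7 in LT and 261.2 in 17kT, against 62.9 in WT, at least 2.89-fold higher in 17kT. The heat shock co-chaperone Dnaja1 had 3506.2 in LT and 2191.3 in 17kT, against 1941.2 in WT, 1.81-fold and 1.13-fold. With scaling to the shared probe sets Nfe2l2 gave 0.80 in LT and 0.95 in 17kT on the log2 scale and was past 2-fold in neither.

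The genes whose pair of log2 ratios (LT against WT, 17kT against WT) lay nearest to each zinc gene were found by Euclidean distance among named genes above the floor on all 3 arrays of the design. The points share the same 3 arrays, and 8670 probe sets of other named genes were candidates for Mt1. Nearest to Mt1 were Pbk (2.67, 3.79), Rrm2 (2.68, 3.81) and Cdca3 (2.84, 3.74), at distances of 0.23 to 0.34. Nearest to Mt2 were Cdkn1a (2.04, 3.78), Asf1b (2.16, 2.96) and Ccl6 (2.29, 3.03), at distances of 0.36 to 0.49. Slc39a14 lay nearest to Plin5, Sfxn2 and Hipk3 (up to 0.03), and Slc39a4 to Smoc2, Lyz1 and Creld2 (0.08 to 0.15). Mtf1 had S1pr2, Prmt9 and Klhl20, and Slc30a1 had Ctps2, Vps8 and Frmpd3 as nearest genes on 430B, all within a distance of 0.02.

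On every array 47.0% to 52.0% of probe sets lay above the floor. The ratio of 3′ to 5′ signal of Gapdh, a sign of RNA or labelling quality, was 3.08 and 3.16 in LT and 3.53 and 2.85 in 17kT, against 5.81 and 6.04 in WT on 430A and 430B, so it moved with the contrast in which Mt1 and Mt2 were higher. The same ratio of Actb was 2.52 and 2.5 in LT and 2.13 and 1.72 in 17kT, against 2.57 and 2.29 in WT. It thus did not separate LT from WT, while it was lower in 17kT than in WT on both designs. The part of RNA quality in the result was not tested. Fluidics station 2 served LT and station 1 served 17kT and WT, so station and LT cannot be told apart. The 17kT signals were deposited with more decimals than those of LT and WT, under sample numbers apart from theirs. Any separate handling of 17kT cannot be told apart from its genotype. Summed marker signals on 430A were 91629 in LT and 77232 in 17kT, against 121090 in WT for hepatocytes (6 genes on that array), and 11452 in LT and 13322 in 17kT, against 12779 in WT for macrophages (8 genes), so the tissue read as liver in all 3. Fewer cells of a type and less RNA per cell cannot be told apart in such bulk samples.

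Markers of other cells also differed between the arrays, and their part in the zinc genes' values was not tested. Erythroid markers summed to 247 in LT and 281 in 17kT, against 1960 in WT (4 genes, with Hba-a1 and Slc4a1 at the floor on all), and 1 gene, Alas2, made most of that sum, with 124.3 in LT and 140.7 in 17kT, against 1741.9 in WT. Endothelial markers summed to 2731 in LT and 3450.3 in 17kT, against 4212 in WT (8 genes, none at the floor on all). Stellate and matrix markers summed to 3645 in LT and 5011 in 17kT, against 4814 in WT (7 genes, with Pdgfrb at the floor on all). Dcn made most of the 17kT sum, with 1276.0 in LT and 3059.3 in 17kT, against 1749.2 in WT. Neutrophil markers summed to 794 in LT and 506 in 17kT, against 501 in WT (6 genes, with Camp at the floor on all). Much of the LT sum came from S100a8 and S100a9. S100a8 had 229.0 in LT and 69.2 in 17kT, against 35.6 in WT, and S100a9 had 171.2 and 71.5, against 85.2. B and plasma cell markers summed to 441 in LT and 434 in 17kT, against 694 in WT (5 genes, with Cd79b at the floor on all). Ighm made most of the WT sum, with 180.9 in LT and 154.4 in 17kT, against 455.3 in WT. T and NK cell markers summed to 206 in LT and 159 in 17kT, against 194 in WT (5 genes on 430A, and of the 6 on either design Cd3e, Cd3d, Cd3g, Cd4 and Nkg7 were at the floor on all). Pancreas acinar markers summed to 353 in LT and 573 in 17kT, against 1706 in WT (6 genes, with Cela2a and Cpa1 at the floor on all). Cela1 made most of the WT sum, with 158.6 in LT and 209.4 in 17kT, against 1154.2 in WT. Bile duct markers summed to 1264 in LT and 311 in 17kT, against 294 in WT (6 genes, with Krt19, Krt7, Epcam and Sox9 at the floor on all). Cd24a and Prom1 made most of the LT sum. Cd24a had 545.4 in LT and 57.6 in 17kT, against 89.6 in WT, and Prom1 had 550.1 and 157.9, against 88.4. Intestinal markers, which bear on Slc39a4, summed to 466 in LT and 1561 in 17kT, against 1427 in WT (5 genes, with Vil1, Cdx1 and Cdx2 at the floor on all). Fabp2 made most of that sum, with 316.0 in LT and 1168.9 in 17kT, against 1241.8 in WT.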

How the data were processed

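Liver RNA of LT, 17kT and WT mice was hybridised to 6 Affymetrix arrays, 1 per genotype and design (430A and 430B). Per the submitters' processing notes, the authors used MAS5 (version not given), and what they deposited are linear signal intensities, 1 per probe set. These signals had a 2% trimmed mean of 250.03 to 250.12 on every array. Other entries (chip lot, fluidics station, scanner) came from the deposited settings of each array, per the file headers.

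The arrays of a design were brought to the same 2% trimmed mean, floored at the design's median (90.4 and 140.5), put on the log2 scale and called at 2-fold. Ratios were taken within a design, and a gene was represented by its brightest probe set relative to the floor, with _x_at probe sets used where a gene had no other. Precision is limited by 1 array per genotype and design. Python 3.11.15, numpy 2.4.6, pandas 2.3.3 and matplotlib 3.10.9 were used. Recovery of folds planted in brighter probe sets was checked on simulated data, which did not cover changes in probe sets near the floor.

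The genes and lists were chosen with earlier results of these data known. Named were all probe sets of the 6 genes, list members (metallothionein, Slc30, Slc39, MTF1 target, copper) with a probe set past 2-fold against WT, the 3 largest ratios per comparison with WT of the acute phase, glucocorticoid and stress lists, and the 3 nearest genes by likeness. Selenow and Slc40a1 are named as list members, and Mt3 and Mt4 as family members, outside this rule. Alternatives were 5 other scalings, 4 other treatments of the floor, a 3-fold rule, and leaving out _x_at, _s_at and _a_at probe sets. The same alternatives for the lists and neighbouring genes were added after seeing the data. Promoter windows came from the RefSeq table of GRCm38.p6.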

Additional observations from a re-analysis of the deposited data

How the results depend on the processing

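No paired analysis was possible because each genotype had 1 array per design and the result comes from no test. The higher and lower counts of Mt1, Mt2 and the transporter probe sets were recomputed under 11 alternatives. In 17kT against WT, the count of 3 higher probe sets stayed within 1.5 times under all of them. In LT against WT, the count lower became 1 with scaling to the shared probe sets, a 25th percentile floor or no floor (Mtf1 1452990_at, dim in LT), and the count higher became 1 without the _s_at probe set of Mt1. Slc39a14 1427035_at passed 2-fold in LT under 1 of the scalings (1.02), which added to the count higher there. With no floor, Mtf1 1429170_a_at gave log2 ratios of 1.09 in LT and 1.42 in 17kT against WT, past 2-fold higher in both. Its signals lie under the floor on every 430A array. In 17kT against WT, the count lower became 0 with scaling to the hybridisation controls and under the 3-fold rule (Slc39a4 lost), and 2 with the 25th percentile floor or none (Slc30a1 1422786_at, -2.01). In LT against 17kT, the count higher became 2 with the 25th percentile floor or none, and 0 under the 3-fold rule. The count lower there became 1 with scaling to the median, when Mt1 gave -0.95, 1 without _s_at probe sets, 5 with no floor and 0 under the 3-fold rule. Of the alternative values for single probe sets of these genes, 229 moved by less than the technical spread and 48 by more, and no called value changed sign. Probe sets near the floor (Slc30a1 1422786_at, Mtf1 1452990_at) are limited by signal over background.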

Other observations

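The metallothionein genes lie together on chromosome 8, and their neighbours differed among themselves. These neighbours were chosen for position, outside the rule for named genes. Nudt21, a subunit of the complex that cleaves messenger RNA precursors at their 3′ end, had 1210.0 in LT and 942.6 in 17kT, against 425.6 in WT, 2.84-fold and 2.22-fold higher, with LT above 17kT, and the 17kT ratio was short of 2-fold with scaling to the shared probe sets (0.88 on the log2 scale). Nup93, a nuclear pore component next to Mt1, had 506.5 in LT and 614.7 in 17kT, against 317.3 in WT (log2 ratios 0.67 and 0.95, not past 2-fold). That is the order of the genotypes seen for Mt1 and Mt2, and with scaling to the hybridisation controls both Nup93 ratios passed 2-fold (1.15 and 1.66). Ogfod1 gave -0.35 and -0.68 and Herpud1 gave -0.97 and -0.41 in LT and 17kT against WT. Bbs2, Mt4, Mt3 and Slc12a3 were at the floor on all 3 arrays of their design. Among the 10 neighbouring genes including the metallothioneins, Mt1 and Mt2 had the highest ratios in both comparisons with WT.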
